A study of Mus musculus with 24 samples.

Results

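Guanylate-binding proteins (GBPs) and immunity-related GTPases (IRGs) are 2 families of interferon-inducible GTPases, and 10 of their genes were followed here across tumour-infiltrating T cells of the mouse. The genes were taken by symbol from a table of 54957 gene rows: 6 GBPs (Gbp2, Gbp3, Gbp4, Gbp5, Gbp6 and Gbp7) and 4 IRGs (Igtp, Irgm1, Irgm2 and Iigp1). The 24 bulk RNA libraries came from T cells of tumours formed by B16F10-OVA, a mouse melanoma line engineered to carry chicken ovalbumin as a model antigen. Mice had received 200 micrograms of anti-JAML, anti-PD-1 or isotype antibody, and tumours were harvested 1 day later. The 6 groups of 4 libraries were CD8+ T cells and CD4+FOXP3+ regulatory T (Treg) cells after each of the 3 antibodies. All groups therefore shared the tumour line and the interval of 1 day from antibody to harvest, and each library came from fewer than 400 cells, amplified by Smart-seq2. JAML is an adhesion receptor of lymphocytes and myeloid cells, PD-1 restrains T cells after activation, and the isotype antibody is the control. Whether each library of a group stands for its own mouse is not stated, so the p-values below measure spread among libraries only, and part of it may be technical.

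GBPs are dynamin-like GTPases that assemble on the vacuoles of intracellular parasites and bacteria, and several of them help to start inflammasomes. IRGs work beside them: regulatory members (Irgm1, Irgm2 and Igtp, also called Irgm3) sit on the cell's own membranes and hold the effector members, such as Iigp1 (Irga6), in check until a foreign vacuole is met. Both families are induced mainly by interferon gamma, with IRF1 as one of the factors that act on their promoters, and to a lesser degree by type I interferons, with IRF9 as one such factor. In T cells they are known as markers of an interferon response, and Irgm1 is also known in the mouse for protecting effector CD4 cells from interferon-induced death.

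The 120 bases before the start are shown for the members with a listed promoter, because genes of these families are known to carry response elements for interferon signalling there. Promoters of 7 members were found in the RefSeq table (GRCm38.p6): Gbp2 (chr3:142620543-142620662), Gbp3 (chr3:142559924-142560043), Gbp5 (chr3:142496814-142496933) and Gbp7 (chr3:142530216-142530335) on the plus strand of chromosome 3, Igtp (chr11:58199436-58199555) and Irgm2 (chr11:58214857-58214976) on the plus strand of chromosome 11, and Irgm1 (chr11:48871421-48871540) on the minus strand of chromosome 11. Capitals mark the core of the interferon-stimulated response element (ISRE), searched as GAAANNGAAA on both strands, and the gamma-activated site (GAS), searched as TTCNNNGAA, which reads the same on both strands.
Gbp2: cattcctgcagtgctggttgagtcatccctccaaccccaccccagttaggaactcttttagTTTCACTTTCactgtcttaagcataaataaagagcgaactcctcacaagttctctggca
Gbp3: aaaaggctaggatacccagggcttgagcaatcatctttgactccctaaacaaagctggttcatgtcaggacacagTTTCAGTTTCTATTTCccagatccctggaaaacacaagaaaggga
Gbp5: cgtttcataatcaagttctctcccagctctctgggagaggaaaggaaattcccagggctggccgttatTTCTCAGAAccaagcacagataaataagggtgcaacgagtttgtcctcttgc
Gbp7: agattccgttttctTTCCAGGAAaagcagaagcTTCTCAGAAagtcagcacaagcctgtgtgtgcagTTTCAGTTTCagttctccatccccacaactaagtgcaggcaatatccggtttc
Igtp: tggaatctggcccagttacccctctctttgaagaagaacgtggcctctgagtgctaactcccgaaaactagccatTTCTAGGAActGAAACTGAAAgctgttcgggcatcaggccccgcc
Irgm1: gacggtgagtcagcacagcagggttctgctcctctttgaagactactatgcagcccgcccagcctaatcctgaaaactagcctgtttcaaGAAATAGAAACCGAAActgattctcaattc
Irgm2: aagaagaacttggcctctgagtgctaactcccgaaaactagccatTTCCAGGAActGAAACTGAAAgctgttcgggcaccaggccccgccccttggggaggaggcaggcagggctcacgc

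Within the 250 bases before the start, an ISRE core was found in all 7 members with a promoter, against 2.98% of the 32851 promoters in the table (978 of them). It began 59 bases before the start in Gbp2, 53 in Gbp7, 34 in Igtp and 64 in Irgm2. Overlapping pairs of cores began 45 and 39 bases before the start in Gbp3 and 30 and 24 bases before it in Irgm1, while the core of Gbp5 began 165 bases before the start and so lies outside the window shown. A GAS was found in Gbp5, Gbp7, Igtp and Irgm2, 4 of the 7, against 7.02% of all promoters (2306 of 32851). The windows of Igtp and Irgm2 shared an unbroken run of 38 bases that ended with the first letters of their GAS and held no ISRE, whereas the longest run shared by any other pair of windows was 13 bases, in Gbp3 and Gbp7. A second listed promoter of Gbp3 held neither element. Such matches describe the letters in these windows and do not show that a factor binds there.

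Library totals lay between 11170918 and 22556460 counts, with a median of 16238787. Lineage genes matched the sort labels: Cd8a, a chain of the CD8 coreceptor, lay between 1096 and 1898 CPM (read counts brought to a common library size and scaled for composition) in the 12 CD8 libraries and at most at 0.0761 CPM in Treg libraries. Foxp3, the Treg lineage factor, was at 0 CPM in all 12 CD8 libraries and at 40.6 to 169 CPM in Treg libraries. Several libraries stood apart. Libraries 1 and 4 of Treg cells after anti-PD-1 carried 787 and 1133 CPM of the 9 macrophage and monocyte markers summed, library 2 of CD8 cells after anti-JAML carried 444 CPM, and each of the other 21 libraries carried 154 CPM or less. Library 4 of CD8 cells after anti-JAML had the highest sum of CD4 and Treg markers among CD8 libraries (379 CPM), and library 3 of Treg cells after isotype had the fewest genes detected of all libraries (12643). The 3 neutrophil markers were at 0 CPM in every group. Results below are also given without these 5 libraries where that matters.

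Levels of different genes were compared only in the authors' deposited TPM, which are scaled by gene length. Igtp was the highest member in both populations, at 245.1 ± 77.2 TPM in CD8 cells and 872.6 ± 177.5 TPM in Treg cells (SD, n = 12 libraries each). Gbp5, which in the mouse promotes inflammasome assembly in macrophages, was the lowest, at 1.68 ± 1.38 TPM in CD8 cells and 5.22 ± 2.76 TPM in Treg cells. Between them, mean TPM in CD8 cells descended over Irgm1 (48.8), Gbp2 (48.8), Gbp4 (42.5), Gbp7 (41.9), Gbp3 (35.7), Irgm2 (18.5), Gbp6 (17.1) and Iigp1 (7.82). Treg cells had the order Irgm1 (130.8), Gbp2 (125), Iigp1 (121.8), Gbp7 (112.4), Gbp4 (111.5), Irgm2 (83.2), Gbp3 (80.1) and Gbp6 (50.5). Most neighbours in these orders differed by less than the larger of their SDs. The exceptions were the step from Igtp to Irgm1 in both populations, the step from Iigp1 to Gbp5 in CD8 cells and the step from Gbp6 to Gbp5 in Treg cells. Iigp1 stood at position 9 of 10 in CD8 cells and at position 4 of 10 in Treg cells, the widest shift in position of any member.

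**Figure D1:**
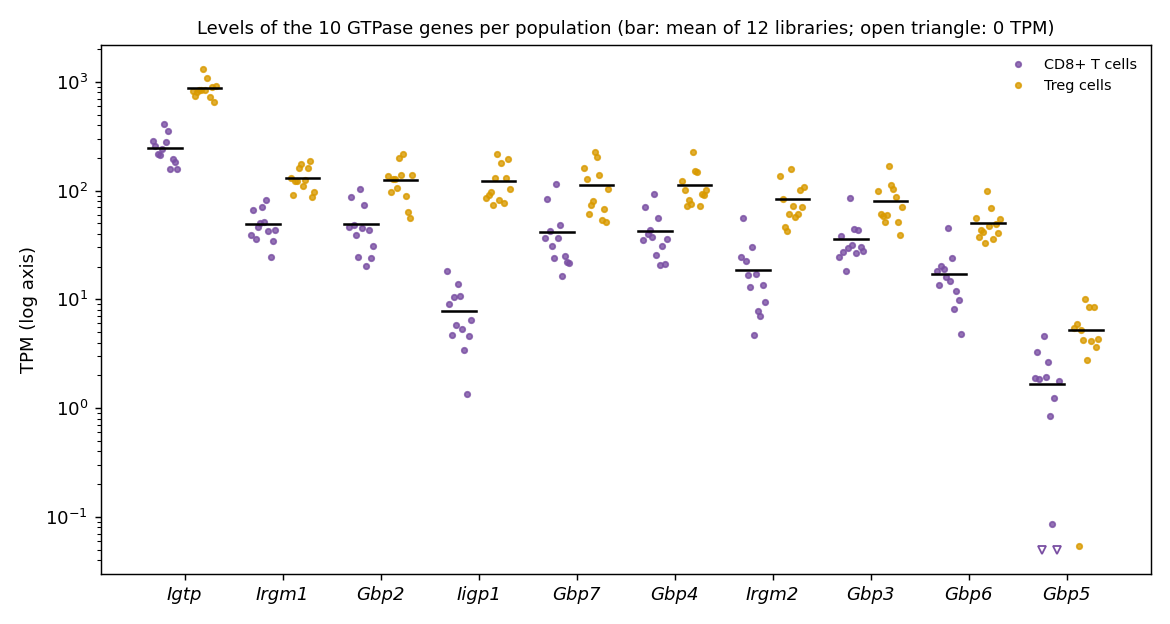
Deposited TPM (log axis) of the 10 members in the 12 CD8 libraries and the 12 Treg libraries. Points are libraries, bars are means over 12 libraries and open triangles are libraries at 0 TPM; the mean of Igtp lies above and that of Gbp5 below the means of the other members in both populations.

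The first comparison asked how the 2 T-cell populations differ at baseline, after isotype antibody. All 10 members had lower mean CPM in CD8 cells than in Treg cells, and 8 of the 10 were called lower at an adjusted p under 0.05 by edgeR's quasi-likelihood test with Benjamini-Hochberg adjustment, against 7.12% of the 11680 genes tested that were called lower. The median log2 fold change was -1.94 over the members and -0.06 over all genes tested, of which 52.4% had a fold change below 0. In 9 members every CD8 library lay below every Treg library, against 9.96% of genes. All 10 members passed the filter on low counts in each comparison reported here. Because each library pools cells, fewer cells carrying a transcript and less transcript per cell cannot be told apart.

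All 4 IRGs were called, with a median log2 fold change of -2.55. Iigp1, the effector IRG, had 9.92, 3.84, 13.7 and 17.7 CPM in CD8 cells after isotype, against 218, 339.5, 515 and 217 CPM in Treg cells after isotype. The highest CD8 library was thus more than an order of magnitude below the lowest Treg library, and Iigp1 was 29.8-fold lower in CD8 cells (log2 fold change -4.90 ± 0.51, SE; adjusted p 0.000456, edgeR). Irgm2, a regulatory IRG that in the mouse restrains caspase-11 responses, had 14.4, 12.5, 26.1 and 16.6 CPM in CD8 cells, against 108, 168, 118 and 144 CPM in Treg cells. These groups did not overlap either, and the fold change was -3.02 ± 0.28 (adjusted p 0.000266, edgeR). Igtp, a regulatory IRG of the endoplasmic reticulum, had 157, 191, 191 and 150.4 CPM in CD8 cells, against 709, 820.3, 592 and 669.8 CPM in Treg cells. Its groups were tight and far apart, and it had the smallest adjusted p of the members (7.67e-05, edgeR) with a log2 fold change of -2.09 ± 0.15. Irgm1 had 121, 69.5, 103 and 119 CPM in CD8 cells, against 449, 485, 226 and 204 CPM in Treg cells. Its Treg libraries formed a high and a low pair, both above the CD8 range, and the log2 fold change was -1.80 ± 0.33 (adjusted p 0.00671, edgeR).

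Of the 6 GBPs 4 were called lower in CD8 cells, with a median log2 fold change of -1.58 over the 6. The ranges of the 2 families overlapped, and the difference between them was not tested. Gbp6 had 23.8, 34.1, 30.02 and 13.5 CPM in CD8 cells after isotype, against 104, 130.4, 108 and 116 CPM in Treg cells after isotype. The groups did not overlap, and the log2 fold change was -2.25 ± 0.28 (adjusted p 0.00126, edgeR). Gbp4 had 77.3, 113, 81.3 and 126 CPM in CD8 cells, against 261, 310.1, 308 and 272 CPM in Treg cells, again without overlap (log2 fold change -1.60 ± 0.19, adjusted p 9e-04, edgeR). Gbp7, which in mouse macrophages takes part in killing of mycobacteria, had 45.6, 67.9, 63.98 and 56.5 CPM in CD8 cells, against 146, 169.5, 130.4 and 210.5 CPM in Treg cells (log2 fold change -1.55 ± 0.20, adjusted p 0.00142, edgeR). Its highest CD8 library was below the lowest Treg library by more than the range within CD8 cells. Gbp2, which in the mouse coats and helps to destroy the vacuole of Toxoplasma, had 25.04, 53.1, 31.3 and 36.6 CPM in CD8 cells, against 107, 71.9, 63.5 and 127 CPM in Treg cells. The lowest Treg library lay only just above the highest CD8 library, and the log2 fold change was -1.40 ± 0.31 (adjusted p 0.0145, edgeR); without library 3 of CD8 cells after isotype it missed the threshold (adjusted p 0.0511).

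Gbp3 and Gbp5 were not called. Gbp3 averaged 51.6 ± 12.2 CPM in the CD8 group and 88.4 ± 34.9 CPM in the Treg group (SD, n = 4 each), with overlapping libraries and a log2 fold change of -0.85 ± 0.29 (adjusted p 0.0886, edgeR). Without library 3 of Treg cells after isotype, the one with the fewest genes detected, Gbp3 passed the threshold at a log2 fold change of -1.002 (adjusted p 0.0495, edgeR). Gbp5 had 0.283, 4.01, 0 and 5.50 CPM in CD8 cells, against 13.3, 25.1, 10.8 and 10.3 CPM in Treg cells. Its groups did not overlap, but at these few counts the log2 fold change of -2.66 ± 1.29 had an adjusted p of 0.221 (edgeR). The other 7 called members were past the threshold in each of the 8 fits that left out 1 library. Dendritic cell markers summed to 62.8 to 216.5 CPM in CD8 cells and 118 to 498.5 CPM in Treg cells after isotype, with 4 and 2 of the 7 markers at 0, and macrophage and monocyte markers to 15.5 to 58.1 CPM in CD8 cells and 20.2 to 103 CPM in Treg cells, with 2 and 1 of the 9 at 0. B cell markers summed to 2.702 to 9.73 CPM in CD8 cells and 14.2 to 53.1 CPM in Treg cells, without overlap, with 2 of the 4 at 0 in each group, and Cd79b was called lower in CD8 cells (log2 fold change -2.40, adjusted p 0.0314, edgeR). Endothelial and stromal markers summed to 15.6 to 30.9 CPM in CD8 cells and 38.95 to 93.1 CPM in Treg cells, also without overlap, with 4 and 2 of the 5 at 0, and Pecam1 was called lower (log2 fold change -1.64, adjusted p 0.0143, edgeR). The part of these markers in the difference was not tested.

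**Figure D2:**
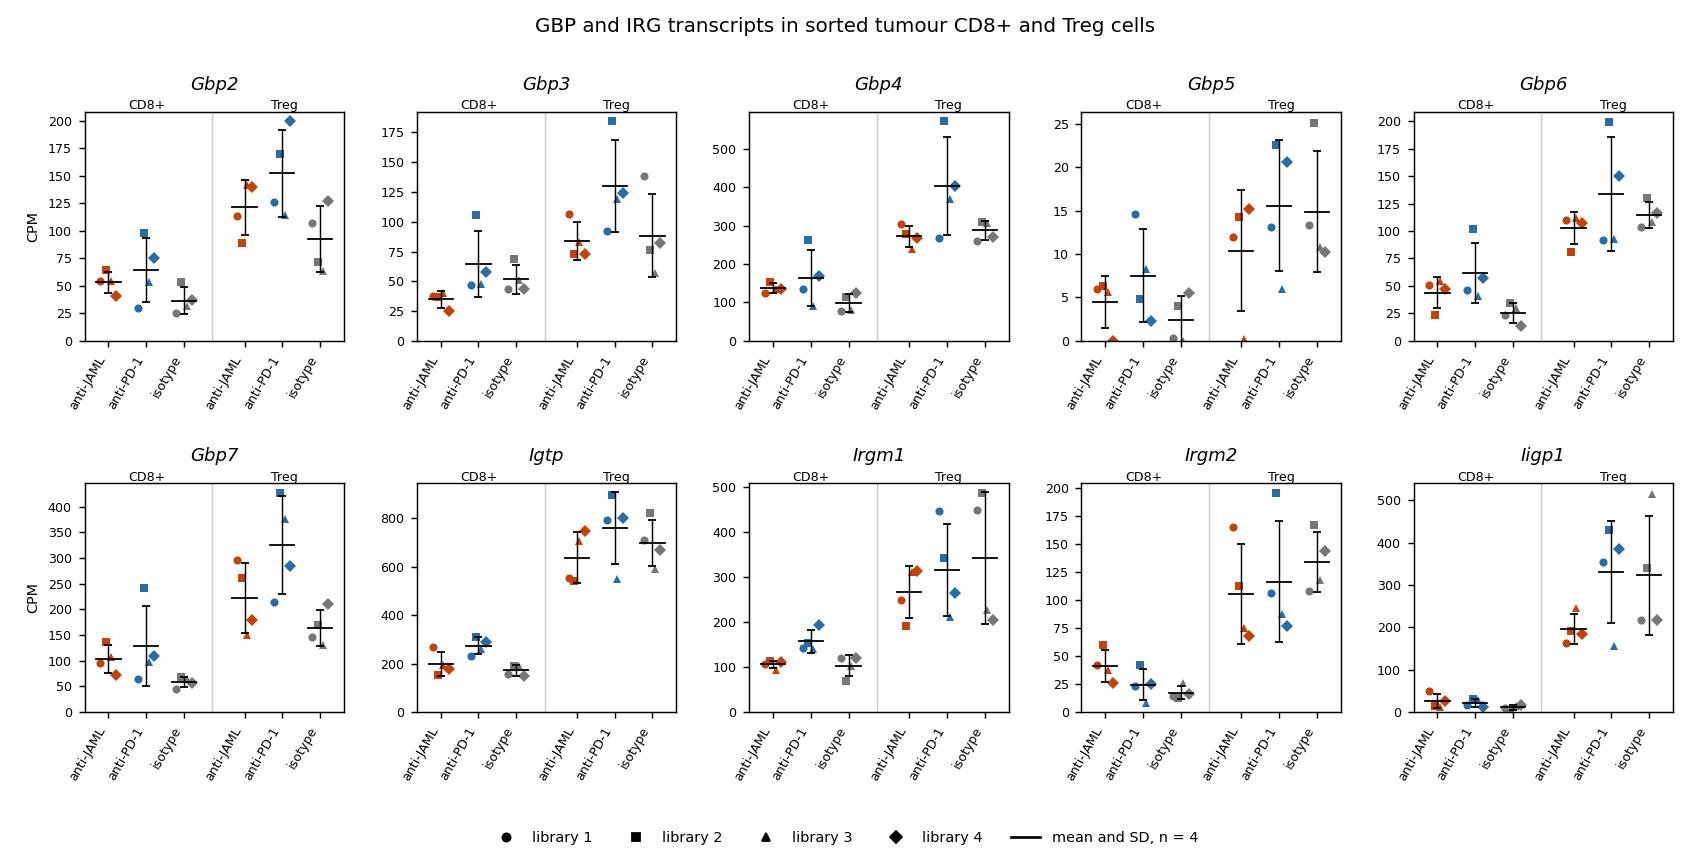
CPM of each member (one panel per gene, linear axis from 0) in the 24 libraries, by group. Points are libraries, bars are the mean of 4 libraries and whiskers the SD; Iigp1 lies between 3.84 and 49.8 CPM in the 12 CD8 libraries and between 156 and 515 CPM in the 12 Treg libraries.

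The same direction was seen after either active antibody. After anti-PD-1 all 10 members again had lower means in CD8 cells, against 52.4% of the 12193 genes tested, and 5 were called lower (Gbp4, Igtp, Irgm1, Irgm2 and Iigp1), against 4.21% of genes. The groups did not overlap in 6 members, against 8.73% of genes, and the median log2 fold change was -1.28 over the members and -0.05 over all genes. All 4 IRGs were called: Iigp1 had 16.2, 30.3, 29.2 and 12.5 CPM in CD8 cells after anti-PD-1, against 355, 428, 156 and 384 CPM in Treg cells after anti-PD-1, a log2 fold change of -3.92 ± 0.41 (adjusted p 0.000647, edgeR). The log2 fold changes were -2.26 ± 0.47 for Irgm2 (adjusted p 0.0199), -1.48 ± 0.20 for Igtp (adjusted p 0.00218) and -1.02 ± 0.24 for Irgm1 (adjusted p 0.033), all by edgeR. Of the GBPs, Gbp4 was called at -1.30 ± 0.33 (adjusted p 0.0423, edgeR). Gbp2, Gbp3, Gbp6 and Gbp7 had log2 fold changes of -1.26, -1.02, -1.13 and -1.35 at adjusted p between 0.0518 and 0.0807 (edgeR), just beyond the threshold.

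The number called after anti-PD-1 rested on single libraries. It was 2 without library 2 of Treg cells, 3 without library 4 of Treg cells and 9 without library 1 of Treg cells, the last 2 being those rich in macrophage and monocyte markers. It was 2 without library 1 or library 4 of CD8 cells, 3 without library 3 and 8 without library 2. Igtp and Iigp1 passed in each of the 8 fits that left out 1 library, while Gbp4 and Irgm1 missed the threshold in 6 of them and Irgm2 in 3; no fold change of a member changed sign. Macrophage and monocyte markers summed to 5.43 to 134 CPM in CD8 cells and 13.7 to 1133 CPM in Treg cells after anti-PD-1, with none of the 9 at 0 in either group. Dendritic cell markers summed to 40.99 to 97.1 CPM in CD8 cells and 119 to 521 CPM in Treg cells, with 4 and 1 of the 7 at 0, and B cell markers to 1.16 to 4.99 CPM in CD8 cells and 14.1 to 33.9 CPM in Treg cells, with 2 of the 4 at 0 in each group. Neither sum overlapped, and Cd79b was called lower in CD8 cells (log2 fold change -3.44, adjusted p 0.00578, edgeR); the part of these markers in the difference was not tested. Without libraries 1 and 4 of Treg cells, 5 members were called and the median was -1.32.

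After anti-JAML, 6 members were called lower in CD8 cells than in Treg cells (Gbp2, Gbp3, Gbp4, Igtp, Irgm1 and Iigp1), against 1.35% of the 11950 genes tested. All 10 had negative fold changes, against 51.4% of genes, and 9 did not overlap between the groups, against 6.13% of genes. The median log2 fold change was -1.34 over the members and -0.03 over all genes. Iigp1 had 49.8, 15.5, 12.4 and 25.3 CPM in CD8 cells after anti-JAML, against 164, 192, 245 and 185 CPM in Treg cells after anti-JAML. The groups were again separate, at a log2 fold change of -3.02 ± 0.43 (adjusted p 0.00717, edgeR). Igtp had a log2 fold change of -1.77 ± 0.23 (adjusted p 0.00455) and Irgm1 one of -1.41 ± 0.21 (adjusted p 0.00866), both by edgeR. Among GBPs it was -1.36 ± 0.27 for Gbp3 (adjusted p 0.0322), -1.27 ± 0.25 for Gbp2 (adjusted p 0.0292) and -1.08 ± 0.19 for Gbp4 (adjusted p 0.0185), all by edgeR. Irgm2, called after the other 2 antibodies, had 42.4, 59.8, 37.3 and 25.6 CPM in CD8 cells, against 166, 113, 75.2 and 67.7 CPM in Treg cells after anti-JAML (log2 fold change -1.44 ± 0.38, adjusted p 0.0946, edgeR). The number called was 8 without library 2 of CD8 cells, and 3 without library 1, 3 or 4 of CD8 cells or library 1, 2 or 4 of Treg cells. Igtp, Irgm1 and Iigp1 passed in all 8 fits that left out 1 library, whereas Gbp2 and Gbp3 missed the threshold in 7 of them and Gbp4 in 6, and 3 members were called without libraries 2 and 4 of CD8 cells together. Dendritic cell markers summed to 43.8 to 153 CPM in CD8 cells and 85.5 to 771 CPM in Treg cells after anti-JAML, with 4 and 0 of the 7 at 0, and B cell markers to 2.85 to 16.6 CPM in CD8 cells and 10.2 to 38.3 CPM in Treg cells, with 2 of the 4 at 0 in each group. Both sums overlapped, and their part in the difference was not tested.

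**Figure D3:**
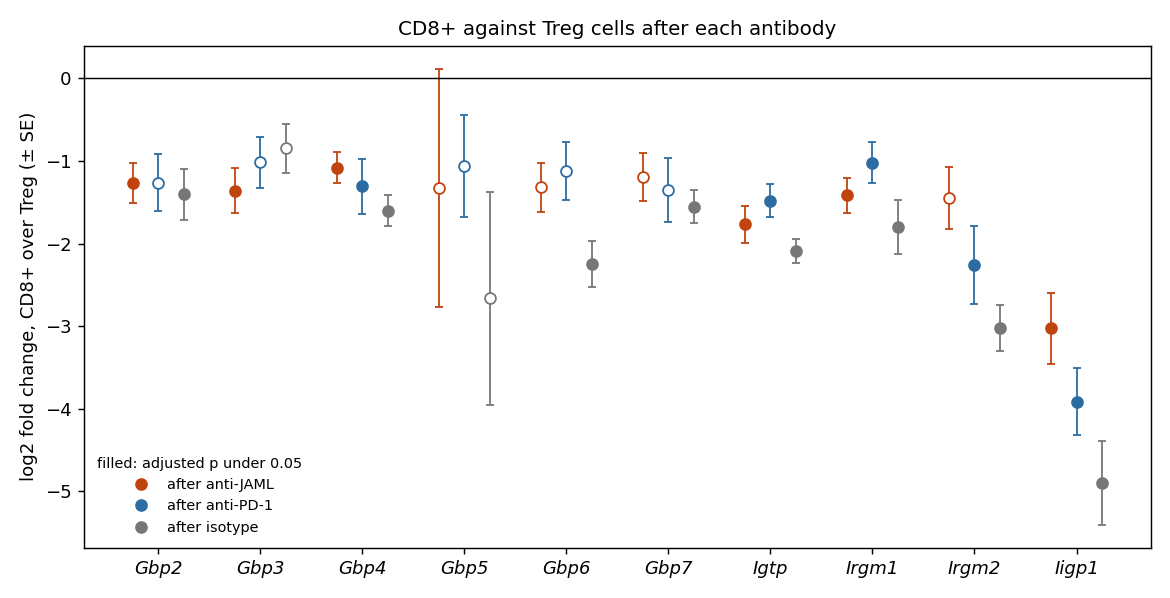
Log2 fold change (CD8 over Treg) of each member after each antibody, with whiskers of 1 SE. Filled points have an adjusted p under 0.05 (edgeR); all 30 points lie below 0, from -0.85 for Gbp3 after isotype to -4.90 for Iigp1 after isotype.

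Antibody effects were then compared within CD8 cells. After anti-PD-1 every member had a higher mean than after isotype, against 53.0% of the 12648 genes tested that had a fold change above 0, but no member was called, nor was any other gene (0%, edgeR); DESeq2 called 22 genes and 0 members. The median log2 fold change was 0.80 over the members and 0.04 over all genes. At an unadjusted p under 0.05, 6 of 10 members were higher, against 4.06% of genes, and 3 of them (Gbp6, Igtp and Irgm1) did not overlap between groups, against 3.49% of genes. Igtp had 233, 312, 262 and 289 CPM in CD8 cells after anti-PD-1, against 157, 191, 191 and 150.4 CPM in CD8 cells after isotype. Every anti-PD-1 library exceeded every isotype library (log2 fold change 0.70 ± 0.19, unadjusted p 0.0027, adjusted p 0.856, edgeR). Irgm1 had 142, 153, 139 and 193 CPM after anti-PD-1, against 121, 69.5, 103 and 119 CPM after isotype. Here too the ranges were separate, at a log2 fold change of 0.63 ± 0.20 (unadjusted p 0.0065, adjusted p 0.856, edgeR). Gbp6 had 46.3, 102, 41.2 and 57.04 CPM after anti-PD-1, against 23.8, 34.1, 30.02 and 13.5 CPM after isotype. Library 2 was the highest by far, and the lowest anti-PD-1 library was still above the isotype range (log2 fold change 1.31 ± 0.38, unadjusted p 0.00431, adjusted p 0.856, edgeR).

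The other 3 overlapped in part. Gbp7 had 65.1, 243, 96.96 and 109.6 CPM in CD8 cells after anti-PD-1, against 45.6, 67.9, 63.98 and 56.5 CPM after isotype (log2 fold change 1.18 ± 0.35, unadjusted p 0.00545, edgeR). Gbp4 averaged 164 ± 73.5 CPM after anti-PD-1 and 99.3 ± 23.7 CPM after isotype (SD, n = 4 each; log2 fold change 0.76 ± 0.29, unadjusted p 0.0196, edgeR). Gbp2 averaged 63.97 ± 29.1 CPM after anti-PD-1 and 36.5 ± 12.04 CPM after isotype (SD, n = 4 each; log2 fold change 0.84 ± 0.35, unadjusted p 0.0303, edgeR). The adjusted p was 0.856 or 0.865 for all 6. Gbp3, Gbp5, Irgm2 and Iigp1 had log2 fold changes between 0.36 and 1.61 with unadjusted p of 0.0912 or more. Library 2 of CD8 cells after anti-PD-1 carried much of this: without it the log2 fold change was 0.64 for Gbp7, 0.42 for Gbp4 and 0.54 for Gbp2, but 0.61 for Igtp and 0.94 for Gbp6. CD8 cells after anti-PD-1 also had more genes detected per library (14396 to 15356) than after isotype (13927 to 14390), and with genes detected as a covariate the median over members was 0.54.

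After anti-JAML, 9 of the 10 members had higher means in CD8 cells than after isotype, against 55.3% of genes tested, with a median log2 fold change of 0.71 against 0.09 over all genes. No gene was called (0%, edgeR), whereas DESeq2 called 210 genes, 0 of them members. At an unadjusted p under 0.05, 4 members were higher, against 6.85% of genes. Irgm2 had 42.4, 59.8, 37.3 and 25.6 CPM after anti-JAML, against 14.4, 12.5, 26.1 and 16.6 CPM after isotype. Only the lowest anti-JAML library lay within the isotype range, and the log2 fold change was 1.29 ± 0.45 (unadjusted p 0.0138, adjusted p 0.354, edgeR). Iigp1 had 49.8, 15.5, 12.4 and 25.3 CPM after anti-JAML, against 9.92, 3.84, 13.7 and 17.7 CPM after isotype, with overlap (log2 fold change 1.22 ± 0.55, unadjusted p 0.0426, adjusted p 0.412, edgeR). Without library 1 after anti-JAML, its highest, the value for Iigp1 was 0.69. Gbp7 had 95.9, 137, 108 and 72.8 CPM after anti-JAML, against 45.6, 67.9, 63.98 and 56.5 CPM after isotype. It was the 1 member with separate and higher libraries, against 2.85% of genes (log2 fold change 0.86 ± 0.35, unadjusted p 0.0291, adjusted p 0.396, edgeR). Gbp6 had 50.5, 23.3, 54.04 and 47.4 CPM after anti-JAML, against 23.8, 34.1, 30.02 and 13.5 CPM after isotype, with only library 2 after anti-JAML inside the isotype range (log2 fold change 0.83 ± 0.38, unadjusted p 0.0473, adjusted p 0.421, edgeR).

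Gbp3 ran the other way. It had 37.9, 36.7, 40.1 and 24.6 CPM in CD8 cells after anti-JAML, against 43.3, 69.02, 51.05 and 43.2 CPM after isotype. All anti-JAML libraries were below all isotype libraries, as in 6.29% of genes, yet the log2 fold change of -0.53 ± 0.30 had an unadjusted p of 0.105 (edgeR). The remaining 5 members had log2 fold changes between 0.08 and 0.89. Igtp, highest of the IRGs, averaged 199 ± 50.6 CPM after anti-JAML and 172 ± 21.5 CPM after isotype (SD, n = 4 each), and Irgm1 106 ± 8.31 CPM and 103 ± 23.9 CPM. Without libraries 2 and 4 after anti-JAML the median over members was 0.72, Gbp6 stood at 1.08 (unadjusted p 0.0194), Iigp1 at 1.49 (unadjusted p 0.0334), Irgm2 at 1.23 (unadjusted p 0.0312) and Gbp7 at 0.84 (unadjusted p 0.0603), all by edgeR.

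The 2 active antibodies were also set against each other in CD8 cells. Both of the preceding comparisons share the isotype libraries, so their values are given side by side and not correlated. The median log2 fold change of anti-JAML over anti-PD-1 was -0.38 over the members and 0.02 over all genes, and 8 of 10 members were lower after anti-JAML, against 49.0% of genes. None was called, against 1 gene in all (0.00791%, edgeR); DESeq2 called 262 genes and 0 members. At an unadjusted p under 0.05, 3 members were lower, against 4.89% of genes. Gbp3 had 37.9, 36.7, 40.1 and 24.6 CPM after anti-JAML, against 46.9, 106, 48.01 and 58.1 CPM after anti-PD-1 (log2 fold change -0.89 ± 0.30, unadjusted p 0.0117, adjusted p 0.309, edgeR). Irgm1 had 106, 113, 94.4 and 111 CPM after anti-JAML, against 142, 153, 139 and 193 CPM after anti-PD-1 (log2 fold change -0.55 ± 0.20, unadjusted p 0.0145, adjusted p 0.33, edgeR). These 2 genes did not overlap, against 3.32% of genes. Igtp averaged 199 ± 50.6 CPM after anti-JAML and 274 ± 34.1 CPM after anti-PD-1 (SD, n = 4 each), with overlap (log2 fold change -0.45 ± 0.19, unadjusted p 0.0339, adjusted p 0.438, edgeR). Irgm2 and Iigp1 had positive log2 fold changes of 0.76 and 0.23 at unadjusted p of 0.115 and 0.67. Without library 2 of CD8 cells after anti-PD-1 the median was -0.03, and without libraries 2 and 4 after anti-JAML it was -0.30.

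The same antibody comparisons were made within Treg cells. After anti-PD-1 all 6 GBPs had higher means than after isotype, with a median log2 fold change of 0.53, while the 4 IRGs had a median of -0.04. Over all 10 members it was 0.17, against 0.04 over all genes, and 8 of 10 were above 0, against 52.4% of the 12981 genes tested. None was called, against 0.0231% of genes (3 genes, edgeR), while DESeq2 called 623 genes and 1 member, Gbp7 (adjusted p 0.0199). At an unadjusted p under 0.05, 3 members were higher, against 8.34% of genes. Gbp7 had 215, 427, 377 and 284 CPM in Treg cells after anti-PD-1, against 146, 169.5, 130.4 and 210.5 CPM in Treg cells after isotype. It alone among the members did not overlap, against 5.15% of genes (log2 fold change 0.99 ± 0.28, unadjusted p 0.0036, adjusted p 0.151, edgeR). Gbp2 had 126, 169.9, 114 and 199.6 CPM after anti-PD-1, against 107, 71.9, 63.5 and 127 CPM after isotype, with overlap (log2 fold change 0.72 ± 0.27, unadjusted p 0.0181, adjusted p 0.235, edgeR). Gbp4 had 268, 573, 369.8 and 404 CPM after anti-PD-1, against 261, 310.1, 308 and 272 CPM after isotype, its lowest anti-PD-1 library lying within the isotype range (log2 fold change 0.49 ± 0.21, unadjusted p 0.0354, adjusted p 0.302, edgeR).

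Libraries 1 and 4 of Treg cells after anti-PD-1 carried the macrophage and monocyte transcripts given above, and Treg cells after isotype summed to 20.2 to 103 CPM of these markers with 1 of the 9 at 0. Without those 2 libraries and library 3 after isotype, Gbp7 had a log2 fold change of 1.21 ± 0.32 (unadjusted p 0.00326), Gbp4 one of 0.77 ± 0.23 (unadjusted p 0.0075) and Gbp2 one of 0.50 ± 0.31 (unadjusted p 0.144), by edgeR. Treg cells after anti-PD-1 also had more genes detected per library (14031 to 15162) than after isotype (12643 to 14378). With genes detected as a covariate, Gbp7 stood at 0.36 (unadjusted p 0.275), Gbp4 at 0.25 and Gbp2 at 0.36. Library 2 after anti-PD-1 bore on the median over members, which was -0.02 without it.

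After anti-JAML, Treg cells had 8 of 10 members at lower means than after isotype, against 48.6% of genes tested, at a median log2 fold change of -0.15 against 0.02 over all genes. No gene was called (0%, edgeR); DESeq2 called 87 genes and 0 members. Iigp1 was the 1 member at an unadjusted p under 0.05, against 1.76% of genes called lower at that level. It had 164, 192, 245 and 185 CPM in Treg cells after anti-JAML, against 218, 339.5, 515 and 217 CPM after isotype. The anti-JAML libraries were close together and the isotype libraries widely spread, with overlap (log2 fold change -0.72 ± 0.33, unadjusted p 0.0471, adjusted p 0.909, edgeR). Without library 3 after isotype, the highest for Iigp1, the value was -0.39. The other 9 members lay between -0.51 (Gbp5) and 0.44 (Gbp7), with unadjusted p of 0.136 or more. The median was -0.07 without library 2 after anti-JAML.

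Against anti-PD-1, all 10 members had lower means after anti-JAML in Treg cells, against 51.9% of genes, with a median log2 fold change of -0.47 against -0.03 over all genes. No gene was called (0%, edgeR); DESeq2 called 70 genes and 0 members. At an unadjusted p under 0.05, 3 members were lower, against 2.80% of genes. Gbp4 had 305, 279, 238 and 269 CPM after anti-JAML, against 268, 573, 369.8 and 404 CPM after anti-PD-1 (log2 fold change -0.57 ± 0.21, unadjusted p 0.018, adjusted p 0.765, edgeR). Iigp1 had 164, 192, 245 and 185 CPM after anti-JAML, against 355, 428, 156 and 384 CPM after anti-PD-1 (log2 fold change -0.75 ± 0.33, unadjusted p 0.0387, edgeR). Gbp3 averaged 83.9 ± 16.02 CPM after anti-JAML and 130.2 ± 38.9 CPM after anti-PD-1 (SD, n = 4 each; log2 fold change -0.63 ± 0.29, unadjusted p 0.0468, adjusted p 0.849, edgeR). In each of these the groups overlapped. Without library 2 of Treg cells after anti-PD-1, the highest for 8 of the members, the median was -0.29; without libraries 1 and 4 after anti-PD-1 and library 3 after isotype it was -0.50.

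**Figure D4:**
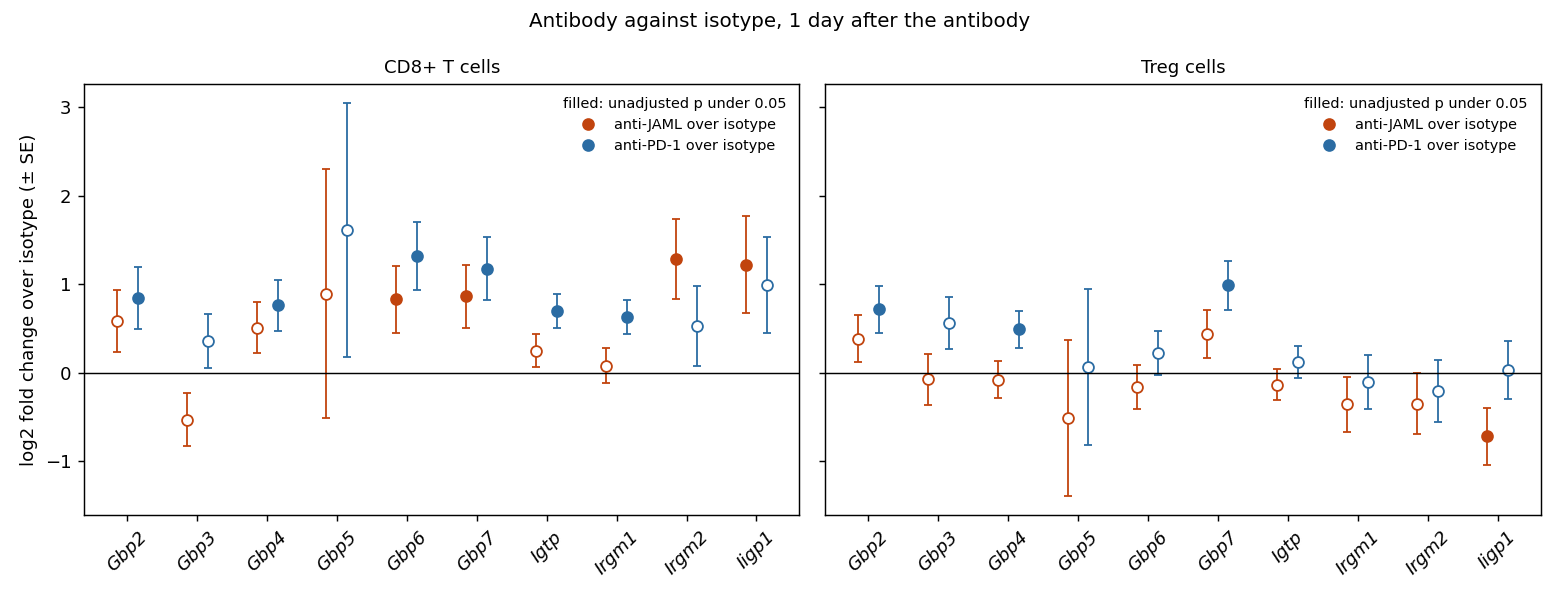
Log2 fold change of each member after anti-JAML and after anti-PD-1 over isotype, in CD8 cells and in Treg cells, with whiskers of 1 SE. Filled points have an unadjusted p under 0.05 (edgeR) and no point passed the adjusted threshold; 19 of the 20 CD8 points lie above 0, the exception being Gbp3 after anti-JAML.

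Whether an antibody effect differed between the populations was tested directly, as an interaction over all 24 libraries. For anti-JAML, the CD8 effect exceeded the Treg effect in 9 of 10 members, against 48.5% of the 14591 genes tested, with a median difference of 0.47 on the log2 scale against -0.04 over all genes. No gene was called (0%, edgeR), and DESeq2 called 283 genes and 0 members. At an unadjusted p under 0.05 the difference was positive in 3 members, against 3.89% of genes. Iigp1 had a difference of 1.90 ± 0.62 (unadjusted p 0.0057, adjusted p 0.373, edgeR), Irgm2 one of 1.60 ± 0.56 (unadjusted p 0.009, adjusted p 0.404) and Gbp6 one of 0.95 ± 0.45 (unadjusted p 0.0471, adjusted p 0.593). Both IRGs had higher means after anti-JAML than after isotype in CD8 cells, 25.7 and 11.3 CPM for Iigp1, and lower ones in Treg cells, 197 and 322.5 CPM. Without the 5 libraries that stood apart, the differences were 1.85 for Iigp1 (unadjusted p 0.0171), 1.60 for Irgm2 (unadjusted p 0.0237) and 1.24 for Gbp6 (unadjusted p 0.0209).

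For anti-PD-1, 9 of 10 members likewise had a larger effect in CD8 cells than in Treg cells, against 46.3% of genes, with a median difference of 0.62 against -0.07 over all genes. Again no gene was called (0%, edgeR), and DESeq2 called 201 genes and 0 members. Gbp6 had a difference of 1.06 ± 0.45 (unadjusted p 0.0285, adjusted p 0.714, edgeR) and Igtp one of 0.55 ± 0.26 (unadjusted p 0.0483, adjusted p 0.787, edgeR), the 2 members at an unadjusted p under 0.05, against 2.16% of genes. The median was 0.39 without library 2 of CD8 cells after anti-PD-1. Without the 5 libraries that stood apart, Gbp6 had a difference of 0.97 (unadjusted p 0.0697), Igtp one of 0.69 (unadjusted p 0.0215) and Irgm1 one of 1.06 (unadjusted p 0.0181), by edgeR.

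The pathway that induces these genes was examined from its ligand to its other targets. Ifng, the gene for interferon gamma, went the opposite way to the GTPases: it had 333, 459, 408 and 239.5 CPM in CD8 cells after isotype, against 47.8, 29.8, 62.8 and 25.1 CPM in Treg cells after isotype. Every CD8 library was above every Treg library, and Ifng was called higher in CD8 cells at a log2 fold change of 3.05 ± 0.34 (adjusted p 0.000643, edgeR). After anti-PD-1 the value was 3.46 ± 0.40 (adjusted p 0.00123), and after anti-JAML it was 2.98 ± 0.73 (adjusted p 0.0736), where library 2 of CD8 cells had 21.02 CPM. The other 4 interferon genes examined (Ifnb1, Ifna2, Ifna4 and Ifnl2) were not tested in any comparison, having too few counts.

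The receptor genes, like the GTPases, had lower means in CD8 cells than in Treg cells after isotype. Within each population Ifngr1 did not follow the mean standardised log2 CPM of the members (Pearson r -0.17 in CD8 cells and -0.52 in Treg cells, n = 12 each). In the same order, r was 0.12 and -0.57 for Ifngr2, 0.36 and 0.24 for Ifnar1, and -0.04 and -0.45 for Ifnar2. Ifngr1, the ligand-binding chain of the interferon gamma receptor, had 835, 1073, 944 and 869 CPM in CD8 cells after isotype, against 2899, 3527, 3276 and 2670 CPM in Treg cells. It was called lower in CD8 cells after every antibody, at log2 fold changes of -1.80 ± 0.13 after isotype (adjusted p 0.000109), -1.16 ± 0.17 under anti-PD-1 (adjusted p 0.00407) and -1.27 ± 0.22 under anti-JAML (adjusted p 0.0186), all by edgeR. The 2 chains of the type I interferon receptor were called lower in CD8 cells after isotype, Ifnar1 at -1.24 ± 0.32 (adjusted p 0.03) and Ifnar2 at -1.07 ± 0.25 (adjusted p 0.0198). After anti-JAML both overlapped between the populations. Ifnar1 then had 94.9, 192.5, 68.5 and 74.2 CPM in CD8 cells, against 167, 142, 73.02 and 73.9 CPM in Treg cells. Ifnar2 then had 31.9 to 64.9 CPM in CD8 cells and 36.6 to 67.9 CPM in Treg cells. Ifngr2, the signalling chain for interferon gamma, was near the limit of detection, at 1.34 ± 1.71 CPM in the CD8 group and 7.11 ± 3.39 CPM in the Treg group (SD, n = 4 each), and was not called.

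Of 9 genes that relay the signal (the Janus kinases, Stat2 and IRFs), 4 were called lower and 0 higher in CD8 cells after isotype. Of all genes tested, 7.12% were called lower. Irf1, a factor that binds ISREs, had 129, 163, 99.9 and 159 CPM in CD8 cells, against 264, 335, 288 and 293 CPM in Treg cells. The groups did not overlap, and the log2 fold change was -1.17 ± 0.18 (adjusted p 0.00326, edgeR). Within each population the Pearson r of Irf1 with the mean standardised log2 CPM of the members was 0.72 in CD8 cells and 0.51 in Treg cells (n = 12 each). Irf7 (-1.71) and Irf9 (-1.59) were also called. After anti-PD-1, 5 of the 9 were called lower, against 4.21% of all genes, and after anti-JAML 1 of the 9, against 1.35%. Irf1 was called each time (-0.85 ± 0.22, adjusted p 0.0432, and -1.12 ± 0.24, adjusted p 0.047, edgeR).

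The remaining members of the 2 families moved in the same direction after isotype: all 3 other GBPs tested were called lower in CD8 cells (Gbp10 at -2.19, Gbp8 at -1.46 and Gbp9 at -1.17), as were 5 of the 6 other IRGs tested, led by Tgtp2 (-1.84), Tgtp1 (-2.38) and Gm12250 (-1.72). Of other interferon gamma targets, 4 of 13 were called lower, including B2m, the light chain of MHC class I (-0.69), Parp14 (-1.84) and Casp1 (-1.14). Of type I interferon targets, 10 of 20 were called lower, led by Isg20 (-2.83), Ifit1 (-2.80) and the RNA sensor Ddx58 (-1.71). Feedback inhibitors gave 2 of 6, the ISG15 protease Usp18, which dampens type I receptor signalling (-1.67) and Socs1 (-1.37). Partners of the GTPases, mostly of the autophagy conjugation system that places GBPs and IRGs on membranes, gave 5 of 16, led by Map1lc3b (-0.81), Gabarap (-0.62) and Rabgap1l (-0.89). Leaving out 1 library at a time ended the call of Gbp9 in 7 of 8 fits, of Gbp8 in 5 and of Gbp10 in 2. No gene of these 6 lists was called higher in CD8 cells after isotype, and 7.12% of all genes tested were called lower. After anti-PD-1 the calls lower in CD8 cells were 1 of 5 other GBPs, 3 of 6 other IRGs, 1 of 13 interferon gamma targets, 11 of 20 type I targets, 1 of 6 inhibitors and 1 of 16 partners, while Gbp11, at 0.987 to 2.86 CPM in CD8 cells and 0 CPM in Treg cells, was called higher. With 4.21% of all genes called lower, the counts of 1 of 13 and 1 of 16 lie near the background. After anti-JAML they were 0 of 3, 3 of 6, 1 of 13, 4 of 19, 0 of 6 and 1 of 16, against 1.35% of all genes. These values are all log2 fold changes by edgeR, with calls at an adjusted p under 0.05.

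**Figure D5:**
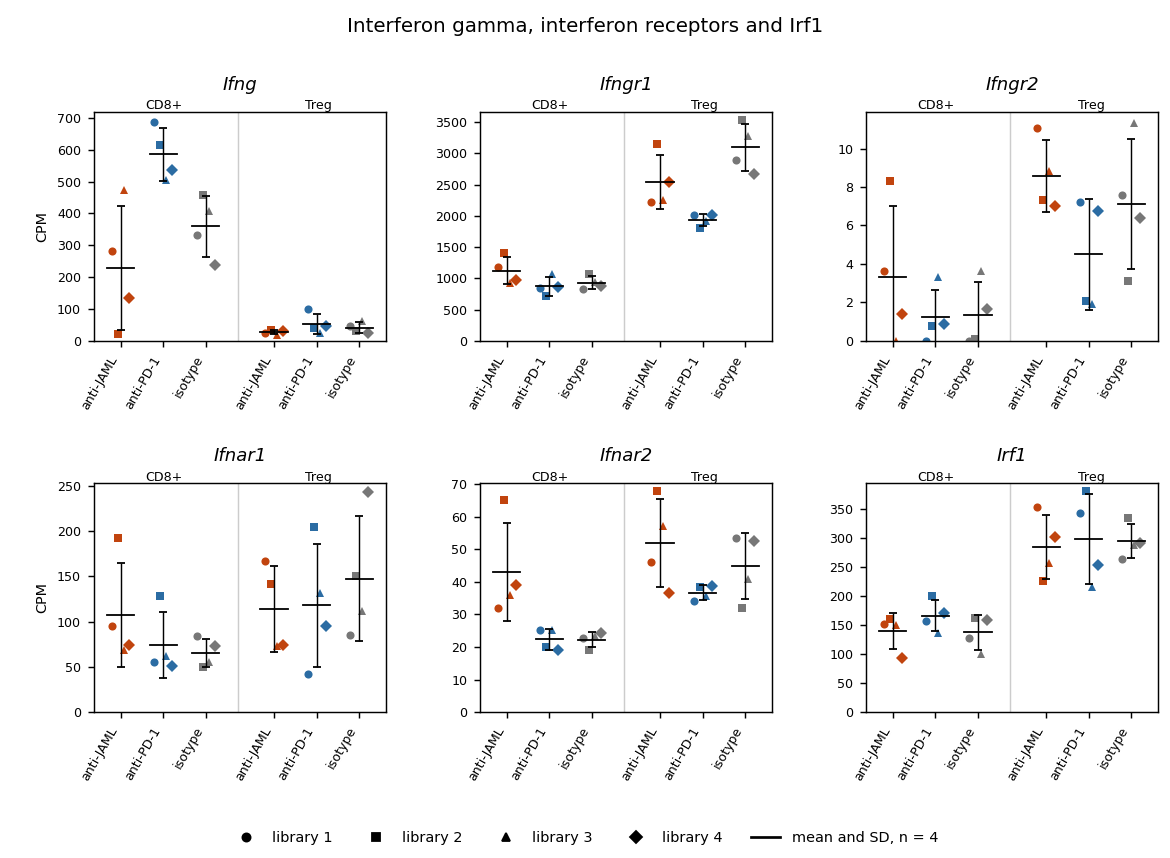
CPM of Ifng, the 4 interferon receptor chains and Irf1 in the 24 libraries by group (linear axes from 0). Points are libraries, bars the mean of 4 and whiskers the SD; Ifng is between 239.5 and 459 CPM in CD8 cells after isotype and between 25.1 and 62.8 CPM in Treg cells after isotype, whereas Ifngr1 and Irf1 are higher in Treg cells.

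Within a population, no gene of these lists was called between antibodies, and the numbers that follow are at an unadjusted p under 0.05 (edgeR). In CD8 cells after anti-PD-1 against isotype, 11 of 20 type I targets were higher, among them Ddx58 (1.25), Ifit1 (1.42) and the tetherin gene Bst2 (0.77), as were 4 of 9 relay genes, led by Irf7 (0.97 ± 0.20, unadjusted p 0.000294, adjusted p 0.831), Irf9 (0.53) and Irf8 (0.93), and Usp18 (1.64 ± 0.36, unadjusted p 0.000526), against 4.06% of all genes. Ifng had 687, 616, 504 and 536 CPM after anti-PD-1, against 333, 459, 408 and 239.5 CPM after isotype. Those libraries did not overlap, though the unadjusted p was 0.233. After anti-JAML against isotype, Ifnar2 had a log2 fold change of 0.99 ± 0.28 (unadjusted p 0.00344, adjusted p 0.298) and Tgtp1 one of 1.35 ± 0.34 (unadjusted p 0.00139, adjusted p 0.29), and 3 of 20 type I targets were higher, against 6.85% of all genes. Relay genes gave 3 of 9 higher and feedback inhibitors 2 of 6. The other GBPs and the other IRGs gave 2 of 4 each, as they also did after anti-PD-1. Of 13 interferon gamma targets 3 were lower and 0 higher, against 616 of 12648 genes lower. The immunoproteasome genes Psmb10 (-0.48) and Psmb9 (-0.46) were among the 3, while the median over the 13 was 0.15. Ifng had 281, 21.02, 474 and 136 CPM after anti-JAML, below every anti-PD-1 library (log2 fold change of anti-JAML over anti-PD-1 -1.35 ± 0.59, unadjusted p 0.0393, adjusted p 0.461).

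In Treg cells after anti-PD-1 against isotype, Bst2 had a log2 fold change of 1.34 ± 0.24 (unadjusted p 9.85e-05, adjusted p 0.0705, edgeR), and Irf7 one of 0.67, whereas Irf2 had one of -0.49. At an unadjusted p under 0.05, 2 of 20 type I targets were higher, near the 8.34% of all genes. Of 9 relay genes 1 was higher and 1 lower at that level. Of 13 interferon gamma targets 2 were higher and 3 lower, and 2 of 4 other GBPs were higher. Ifngr1 had 2012, 1810, 1915 and 2010 CPM after anti-PD-1, against 2899, 3527, 3276 and 2670 CPM after isotype. All 4 were lower than any isotype library (log2 fold change -0.68 ± 0.15, unadjusted p 0.000456, adjusted p 0.0939, edgeR). Of 16 partner genes 4 were lower at an unadjusted p under 0.05, against 753 of 12981 genes. Among them were Map1lc3b (-1.03), Gabarap (-0.81) and Gabarapl2 (-0.86), in the direction opposite to that of the GBPs. In Treg cells after anti-JAML against isotype, 2 of 13 interferon gamma targets were lower at an unadjusted p under 0.05, Casp1 (-1.37) and Parp14 (-0.69), as were 1 of 20 type I targets, Oas1a (-0.63), and 2 of 16 partners, Casp4 (-0.76) and Gabarapl2 (-0.52), against 1.76% of all genes. Of 4 other GBPs tested, 1 was higher, against 3.63% of all genes: Gbp2b had 10.97, 0, 0.105 and 10.03 CPM after anti-JAML, against 0 CPM in all 4 libraries after isotype (unadjusted p 0.00882, adjusted p 0.853, edgeR). No other IRG, receptor, relay gene or inhibitor reached that level.

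The members varied together over the 24 libraries. The median Pearson r of log2 CPM over the 45 pairs of members was 0.79 (0.45 to 0.94), a description that holds the difference between populations. With group means removed the median was 0.19 (-0.28 to 0.69), and within the 12 CD8 libraries and the 12 Treg libraries it was 0.39 and 0.32. Among the genes outside the list most like the mean standardised profile of the members, of 11734 ranked by r over the 24 libraries, were the apolipoprotein gene Apol9b (0.94), the chemokine receptor Ccr2 (0.94), the nucleotide hydrolase Samhd1 (0.93) and the MHC class I gene H2-K1 (0.93). As CD8 and Treg libraries sit apart on both axes, r was also taken within each population: it was 0.72 in CD8 cells and 0.29 in Treg cells for Apol9b, 0.61 and 0.51 for Ccr2, 0.63 and 0.16 for Samhd1, and 0.59 and 0.57 for H2-K1 (n = 12 each). All libraries of a population share a sort and differ in depth, so these values describe likeness only.

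In mm10, Gbp2, Gbp3, Gbp5 and Gbp7 lie in a cluster on chromosome 3 (142493978 to 142638008), Gbp4 and Gbp6 in a cluster on chromosome 5 (105115767 to 105293698, minus strand), and Igtp, Irgm2 (58199556 to 58222782) and Irgm1 (48861968 to 48871683) on chromosome 11, with Iigp1 on chromosome 18 (60376027 to 60392634). Close copies make some values uncertain, because the handling of reads shared between genes is not given in the sources used here. Of the distinct 50-base stretches of Gbp6 transcripts, 70.7% also occur in another gene, chiefly Gm43302 (65.0%) and Gbp10 (45.9%). The share was 12.7% for Gbp7, 11.8% for Igtp, 7.77% for Irgm2, 7.70% for Gbp4, 3.75% for Gbp3 and 2.03% or less for the other 4. Annotated genes also overlap on the same strand for Igtp and Irgm2, for Gbp4 with Gbp8 and Gbp9, for Gbp6 with Gm43302 and for Gbp7 with Gm43802. Summed over Gbp6, Gbp10 and Gm43302, CD8 cells had 50.1 ± 11.6 CPM after anti-JAML, 81.1 ± 42.03 CPM after anti-PD-1 and 30.2 ± 10.8 CPM after isotype, and Treg cells had 128 ± 16.1, 173 ± 71.4 and 136 ± 8.32 CPM in that order of antibodies (SD, n = 4 each). After isotype the highest CD8 library (42.7 CPM) was far below the lowest Treg library (128.5 CPM) on this sum too. Gm43302 had 5 counts in library 1 of Treg cells after anti-PD-1 and 0 in every other library, so the sum holds Gbp6 and Gbp10. Gbp6 alone averaged 115 CPM of the 136 CPM in Treg cells after isotype. The sum cannot show where reads shared with Gm43302 were placed, so it does not settle that uncertainty.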

How the data were processed

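The authors deposited a table of counts, unnormalized read numbers for each gene, and a table of TPM for the same 24 libraries. Tools named in the submitters' processing notes are STAR 2.7.3a, fastp 0.20.1, deepTools 3.3.1 and SAMtools, and the build is mm10. How reads were counted, with or without strand and on which annotation, is not given in the sources used here. The single-cell data of the study were not analysed here. Groups and replicate numbers came from the labels, every column belonged to a labelled sample, and 0 rows lacked a gene name.

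Counts were tested in R 4.3.3 with edgeR 4.0.16 (quasi-likelihood F tests; limma 3.58.1), TMM normalization and filterByExpr (minimum count 10, minimum total 15), two-sided, with Benjamini-Hochberg adjustment over all genes tested and a threshold of 0.05. The 12 libraries of a population entered each antibody comparison, the 8 libraries of an antibody each population comparison, and all 24 the interactions. CPM were scaled by TMM, and log2 CPM used a prior count of 2. Deposited TPM, in which depth is lost, served only to order genes. As alternatives, fits were made with DESeq2 1.42.0, with RLE scaling, without the filter, with the replicate number as a block, with genes detected as a covariate, without 5 doubtful libraries, and without each library. Figures and motif searches used Python 3.11.15. The code was tested on simulated counts. For anti-JAML against isotype in CD8 cells, 3.26% of 92 genes changed by a log2 fold change of 1 in either direction were called. Of 94 genes changed by 2, 46.8% were called. For CD8 against Treg cells after isotype the shares were 11.5% of 96 and 45.7% of 94. A gene that was not called is therefore not shown to be unchanged. Amplified reads are not independent molecules, so counts of a few reads are imprecise.

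The members and gene lists were chosen with earlier results of these data known. Fold changes are named for members with an unadjusted p under 0.05, and from each list for at most 3 genes with the smallest such p. Interferon ligands, receptors and Irf1 are given by level in any case. The 5 most similar genes are those with the highest r, leaving out predicted, clone and pseudogene symbols. 1 gene, of the relay list and of these 5, is not reported here and was left out of the counts. Fold changes of other members were added after their values were seen. Positions come from GENCODE M21, which holds 54209 of the gene IDs at an identical version; promoter windows came from RefSeq (GRCm38.p6).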

Additional observations from a re-analysis of the deposited data

Results flagged for a closer look

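Each member was examined in each group for 1 library far from the other 3, by the gap to its nearest neighbour relative to the range of the group. Of 60 such sets of 4 libraries, 4 held one, and chance alone would mark about 1 in 20. All 4 were low values after anti-JAML. Gbp5 was at 0 CPM in library 4 of CD8 cells after anti-JAML, while the other 3 libraries had 5.59 to 6.31 CPM. It was at 0.157 CPM in library 3 of Treg cells after anti-JAML, against 12 to 15.2 CPM in the other 3. Gbp6 was at 23.3 CPM in library 2 of CD8 cells after anti-JAML, against 47.4 to 54 CPM in the other 3. That library also carried 444 CPM of macrophage and monocyte markers, and without it the log2 fold change of Gbp6 in CD8 cells after anti-JAML over isotype was 1.04, against 0.83 with it. Gbp6 was at 80.9 CPM in library 2 of Treg cells after anti-JAML, against 108 to 112 CPM in the other 3.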

How the results depend on the processing

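No fold change of a member or list gene that was called changed sign under any alternative, and RLE normalization and the absence of a filter kept every count of called members within 1.5 times of its value. Of members called lower in CD8 than in Treg cells after anti-PD-1 (5), DESeq2 gave 9 and the replicate block 9, and leaving out 1 library gave 2 to 9. After anti-JAML (6) the replicate block gave 2 (Igtp and Iigp1; Irgm1 had an adjusted p of 0.0586), leaving out the doubtful libraries 3, and leaving out 1 library 3 to 8. After isotype (8) leaving out 1 library gave 7 to 9. In Treg cells after anti-PD-1 against isotype, DESeq2 gave 1 (main 0). The median difference of the anti-JAML effect between populations was 0.78 with genes detected as a covariate (main 0.47), and the cause was not tested. Over all genes, edgeR and DESeq2 called 0 and 210 genes in CD8 cells for anti-JAML over isotype, 0 and 22 for anti-PD-1 over isotype, 1 and 262 between these antibodies, 0 and 87 in Treg cells for anti-JAML over isotype, 3 and 623 for anti-PD-1 over isotype, 0 and 70 between these antibodies, 955 and 1935 between the anti-PD-1 populations, 248 and 747 between the anti-JAML populations, and 0 and 283 and 0 and 201 for the anti-JAML and anti-PD-1 interactions. Same-numbered libraries showed r of deviations from group means of -0.18 to 0.15 (median 0.0039) over 15 pairs of groups. In 0 of the 15 was r above 0.1 in every library, and 7 of 24 libraries correlated best with their own number. Only CD8 and Treg groups of the same antibody could share mice. Their r was -0.053 to 0.090 after anti-JAML, -0.084 to 0.13 after anti-PD-1 and -0.0016 to 0.031 after isotype. These values cannot show whether mice were shared. The main fits did not take the numbers as pairs, and the replicate block is given as an alternative. Fewer than 400 cells per library and few counts limit Gbp5 most.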

Other observations

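Library 2 after anti-PD-1 was the highest of its group for 8 of the 10 members in CD8 cells and for 8 of the 10 in Treg cells, including 5 of the 6 GBPs each time. Summed over the members it had 1353 CPM in CD8 cells, where the other 3 libraries had 752 to 992 CPM, and 3441 CPM in Treg cells, where they had 2085 to 2709 CPM. In CD8 cells it carried 5.43 CPM of macrophage and monocyte markers, the least of the 24 libraries. The labels give both the same number and do not say whether they came from 1 mouse.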
